A study of Homo sapiens with 6 samples.

Results

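The repressor REST and 9 genes of its co-repressor complex were followed across 6 expression arrays of the human embryonic kidney line HEK293. The members were taken by gene name or Entrez gene ID: REST, RCOR1, RCOR2, RCOR3, SIN3A, HDAC1, HDAC2, KDM1A (AOF2 on the array), EHMT1 and EHMT2. These 10 genes of 23595 on the array carried 18 of its 45033 probe sets. All cells were transfected with an shRNA for about 40 hours, either a control or one against SET8, the methyltransferase that mono-methylates lysine 20 of histone H4. The labels call this reagent both siRNA and shRNA, and it is named shRNA here. Conditioned medium then followed for 7 hours, with or without Wnt3a, a ligand of the canonical Wnt pathway. Each of 3 groups had 2 arrays. The control shRNA was combined with both media, and the shRNA against SET8 with Wnt3a medium. SET8 shRNA without Wnt3a was not analysed here. Each SET8 difference was thus seen in the presence of Wnt3a. The labels do not state that the replicates are independent cultures, and the p-values cover the spread between these arrays, which may be technical.

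REST is a zinc-finger protein that binds a long DNA element, RE1, in and near genes of neurons, and keeps them low in other cells. Through one end it recruits SIN3A, a scaffold that carries the histone deacetylases HDAC1 and HDAC2. Through the other it recruits CoREST (RCOR1, with the paralogs RCOR2 and RCOR3), which holds the same deacetylases and the lysine demethylase KDM1A. EHMT1 and EHMT2, also called GLP and G9a, add methyl groups to lysine 9 of histone H3 and are brought in by REST as well. Many epithelial lines, HEK293 among them, have active REST.

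Values are log2 intensities, on which a step of 1 is a doubling, and they are not compared between probe sets. Each array had a median between 7.63 and 7.79, and a set of 1994 random control probes read between 4.66 and 4.84. Replicate arrays correlated across all 45033 probe sets at 0.972 with control medium, 0.976 with Wnt3a medium and 0.985 with SET8 shRNA. A probe set was tested where it lay above the median of its array in at least 2 arrays, which held for 23808. KMT5A, the gene of SET8, spanned 10.53 to 11.20 over the 4 control shRNA arrays of its brighter probe set and was at 8.97 and 9.65 with SET8 shRNA. It was 2.94-fold and 2.16-fold lower with SET8 shRNA on its brighter and its other probe set, with limma adjusted p-values of 0.24 and 0.33 after Benjamini-Hochberg adjustment. Of 12 epithelial line markers, 9 to 11 lay above the array median, with a summed intensity of 69500 to 73900. Of 12 fibroblast markers it was 3 to 6 (18800 to 23600), of 12 neuron markers 2 to 3 (4150 to 6760) and of 12 blood cell markers 2 to 4 (1570 to 3140). The epithelial list includes VIM and CDH2, which fibroblasts express as well, and its CDH1 lay above the median in 3 arrays. The sums cover different probe sets and are not compared between lists. The part of other cell types in the results was not tested.

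Of the members, 14 probe sets of 9 genes were bright enough to test. RCOR1 was below the array median on all 6 arrays. The other 3 left untested were second probe sets of RCOR3, SIN3A and EHMT1. No member was called in any of the 3 comparisons at a limma adjusted p under 0.05, and none of the tested probe sets that stand for the 9 genes had an unadjusted p under 0.05. Over all tested probe sets, the called share was 0.0% for Wnt3a, 0.0% for SET8 shRNA and 0.0504% for both changes together. The share with an unadjusted p under 0.05 was 2.14%, 7.16% and 10.6%. A single value with 2 arrays against 2 cannot reach an exact permutation p under 0.333, so the intervals of the differences are given instead.

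**Figure D1:**
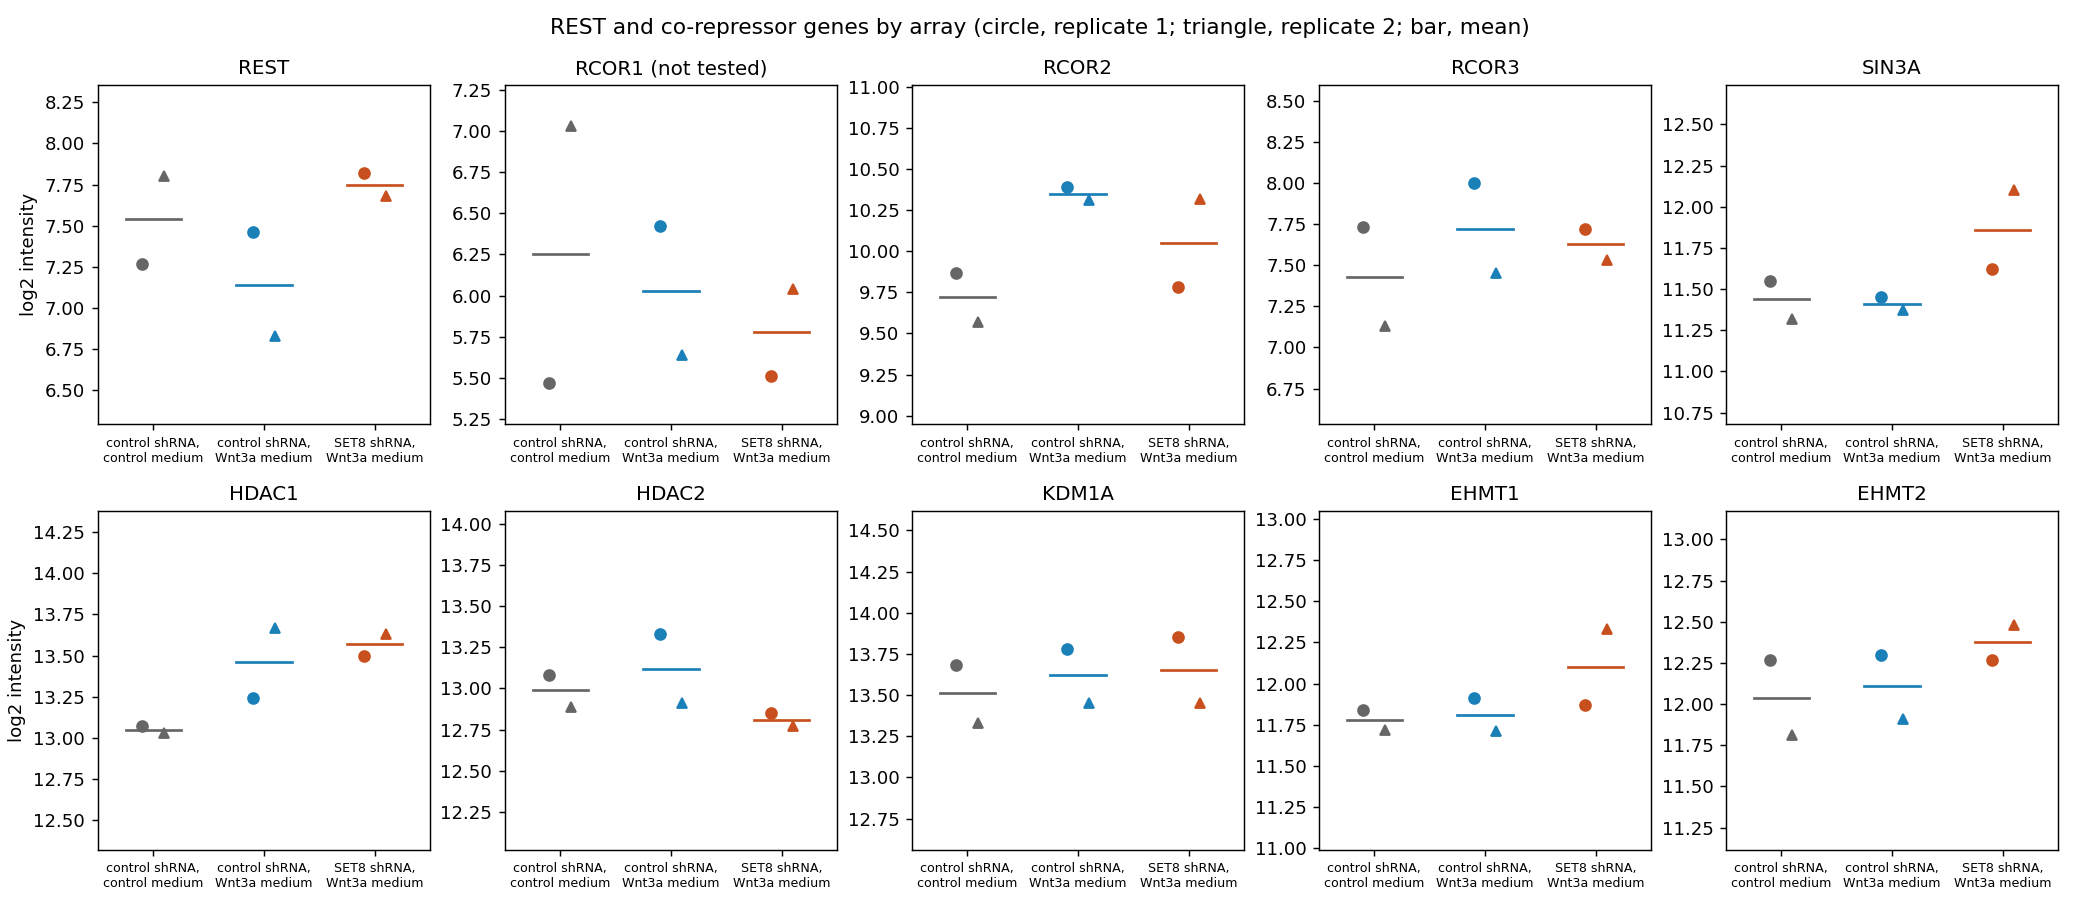
Log2 intensity of each member on its probe set with the highest mean, by group, with 1 point for each array and a bar for the mean of 2. Every panel spans the same range of log2 units around its own centre. The REST mean is highest with SET8 shRNA (7.75), and both control medium arrays of HDAC1 lie below its other 4.

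REST itself was read by 1 probe set (NM_005612, chromosome 4, 57468798 to 57493097, hg18). The 2 control medium arrays gave 7.27 and 7.80, the Wnt3a medium arrays 7.46 and 6.83, and the SET8 shRNA arrays 7.82 and 7.68. Both SET8 shRNA arrays were above both control shRNA arrays in Wnt3a medium, while the control medium arrays spread across both other groups. By group the level was 7.54 ± 0.37, 7.14 ± 0.44 and 7.75 ± 0.10 (SD, n = 2 each). Its probe set lay close to the array median and above it in 2 of the 6 arrays, 1 of control medium and 1 of SET8 shRNA.

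With SET8 shRNA, REST was 0.60 higher (SE 0.31), or 1.52-fold, with a 95% interval from -0.12 to 1.32. The limma adjusted p was 0.78 after Benjamini-Hochberg adjustment and the unadjusted p was 0.088. The difference for Wnt3a was -0.39 (SE 0.31, interval -1.11 to 0.33), and here the arrays numbered 1 and those numbered 2 went opposite ways. Between SET8 shRNA with Wnt3a medium and control shRNA with control medium it was 0.21 (SE 0.31). From low to high the groups were ordered Wnt3a medium, control medium, SET8 shRNA, and neither pair of neighbours differed beyond the spread. The same 2 arrays, control shRNA with Wnt3a, enter both the SET8 and the Wnt3a difference.

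The genes whose values ran most like those of REST over the 6 arrays were SHLD2P3 (Pearson r = 0.978), OSTM1 (0.972), CCNT1 (0.967), E2F1 (0.965) and C10orf12 (0.963). CCNT1 is the cyclin of the elongation kinase P-TEFb, and E2F1 is a transcription factor of S phase entry. All 6 arrays share these values' normalisation, and 24 of 18457 probe sets reached an r of 0.9. The genes named are the highest of these 18457 over only 6 arrays, and the number that chance alone would give was not counted. A link of these genes to REST was not tested. The 13 other tested probe sets of the members were not picked by their r. Their correlation with REST ran from -0.50 for RCOR2 to 0.52 for an EHMT1 probe set. Set beside values picked as the highest, this range cannot show whether members run less like REST than other genes.

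Of the CoREST scaffolds, RCOR2 had the largest Wnt3a difference among the members. RCOR2 is the paralog known from stem cells and the developing nervous system, and it can take the place of RCOR1 beside KDM1A. Its probe set (NM_173587, chromosome 11, 63435277 to 63440892, hg18) gave 9.87 and 9.57 with control medium against 10.39 and 10.31 with Wnt3a medium, and the 2 media did not overlap. With SET8 shRNA it read 9.78 and 10.32, which spans most of the range of the other groups. The Wnt3a difference was 0.63 (SE 0.27, 1.55-fold), with a 95% interval from 0.00 to 1.27, an unadjusted p of 0.05 and a limma adjusted p of 1.0. For SET8 shRNA it was -0.30 (SE 0.27, interval -0.93 to 0.34).

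RCOR1, the founding CoREST protein, gave no usable comparison. Its probe set was at 5.47 and 7.03 with control medium, 6.42 and 5.64 with Wnt3a medium, and 5.51 and 6.04 with SET8 shRNA. The control medium arrays alone covered the range of the other 4, with an SD of 1.10. Without the filter the Wnt3a difference was -0.22 (SE 0.54) and the SET8 difference -0.25 (SE 0.54, interval -1.50 to 1.0), which takes in both a rise and a fall of 2-fold.

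RCOR3, a paralog that can compete with RCOR1 for KDM1A, was read by probe sets that disagreed. The brighter (BC031608) read 7.73 and 7.13, then 8.0 and 7.45, then 7.72 and 7.53 in the order of groups, and its SET8 difference was -0.10 (SE 0.31). The dimmer (NM_018254) was below the median of every array and was not tested. It read 5.63 and 5.22, then 6.11 and 5.14, then 6.60 and 6.71, so that both SET8 shRNA arrays were the highest of the 6. In the fit without a filter that difference was 1.03 (SE 0.38, 2.04-fold, interval 0.15 to 1.91), with an unadjusted p of 0.027 and a limma adjusted p of 0.90. Both exemplar transcripts lie on chromosome 1, 209499478 to 209554552 for the brighter and 209499948 to 209556200 for the dimmer (hg18).

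SIN3A, the scaffold of the other arm, had both SET8 shRNA arrays above both Wnt3a arrays and above both control medium arrays. Its brighter probe set (NM_015477, chromosome 15, 73450327 to 73530979, hg18) was at 11.55 and 11.32 with control medium, 11.45 and 11.37 with Wnt3a medium, and 11.62 and 12.10 with SET8 shRNA. The margin rests on the lower SET8 array, which was just above the highest of the others. The SET8 difference was 0.44 (SE 0.26, 1.36-fold, interval -0.16 to 1.05) with a limma adjusted p of 0.84, and the Wnt3a difference was -0.02 (SE 0.26). A second probe set (BC066364) read 3.90 to 4.89, near the random control probes, and was not tested.

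HDAC1 and HDAC2, closely related class I deacetylases that sit in both arms, did not run together. HDAC1 (NM_004964, chromosome 1, 32530294 to 32571811, hg18) was at 13.07 and 13.03 with control medium, 13.24 and 13.67 with Wnt3a medium, and 13.50 and 13.63 with SET8 shRNA. All 4 Wnt3a-treated arrays were above both control medium arrays. The difference was 0.41 for Wnt3a (SE 0.25, interval -0.17 to 0.98) and 0.52 for SET8 shRNA with Wnt3a against control shRNA with control medium (SE 0.25, interval -0.06 to 1.10, limma adjusted p 0.54). Between the shRNAs in Wnt3a medium it was 0.11 (SE 0.25).

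HDAC2 (NM_001527, chromosome 6, 114368619 to 114398967, hg18) read 13.08 and 12.89, then 13.33 and 12.91, then 12.85 and 12.77. Both SET8 shRNA arrays were below the other 4, though by a small step. The SET8 difference was -0.31 (SE 0.25, 1.24-fold lower, interval -0.89 to 0.27, limma adjusted p 0.92) and the Wnt3a difference 0.13 (SE 0.25). A loss of either deacetylase mRNA by 2-fold with SET8 shRNA lies outside both intervals.

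KDM1A, also called LSD1, removes methyl groups from lysine 4 of histone H3 and needs CoREST to act on nucleosomes. Its probe set (NM_015013, chromosome 1, 23218532 to 23282771, hg18) read 13.68 and 13.33, then 13.78 and 13.45, then 13.85 and 13.45. In each group the array numbered 1 was the higher, and the groups overlapped fully when replicate numbers were set aside. Each Wnt3a medium array was above the control medium array of the same number. The Wnt3a difference was 0.11 (SE 0.27) and the SET8 difference 0.04 (SE 0.27, interval -0.60 to 0.67).

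The EHMT2 probe sets gave small differences. The brighter (NM_006709, chromosome 6, 31955514 to 31973443, hg18) read 12.27 and 11.81, then 12.30 and 11.91, then 12.27 and 12.48. Its SET8 difference was 0.27 (SE 0.27, interval -0.37 to 0.91) and its Wnt3a difference 0.07 (SE 0.27). The dimmer (AK056936), above the median in 2 arrays, read 7.43 to 7.82, with a SET8 difference of 0.19 (SE 0.24) and a Wnt3a difference of -0.11 (SE 0.24).

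EHMT1 was read by 6 probe sets, more than any other member. The brightest (NM_024757, chromosome 9, 139725237 to 139850400, hg18) read 11.84 and 11.72, then 11.91 and 11.71, then 11.87 and 12.33. Its SET8 difference was 0.29 (SE 0.26, interval -0.31 to 0.89) and its Wnt3a difference 0.03 (SE 0.26). Over the 5 tested probe sets the SET8 difference ran from 0.03 to 0.33 and the Wnt3a difference from -0.07 to 0.15. None had groups that did not overlap in these comparisons.

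**Figure D2:**
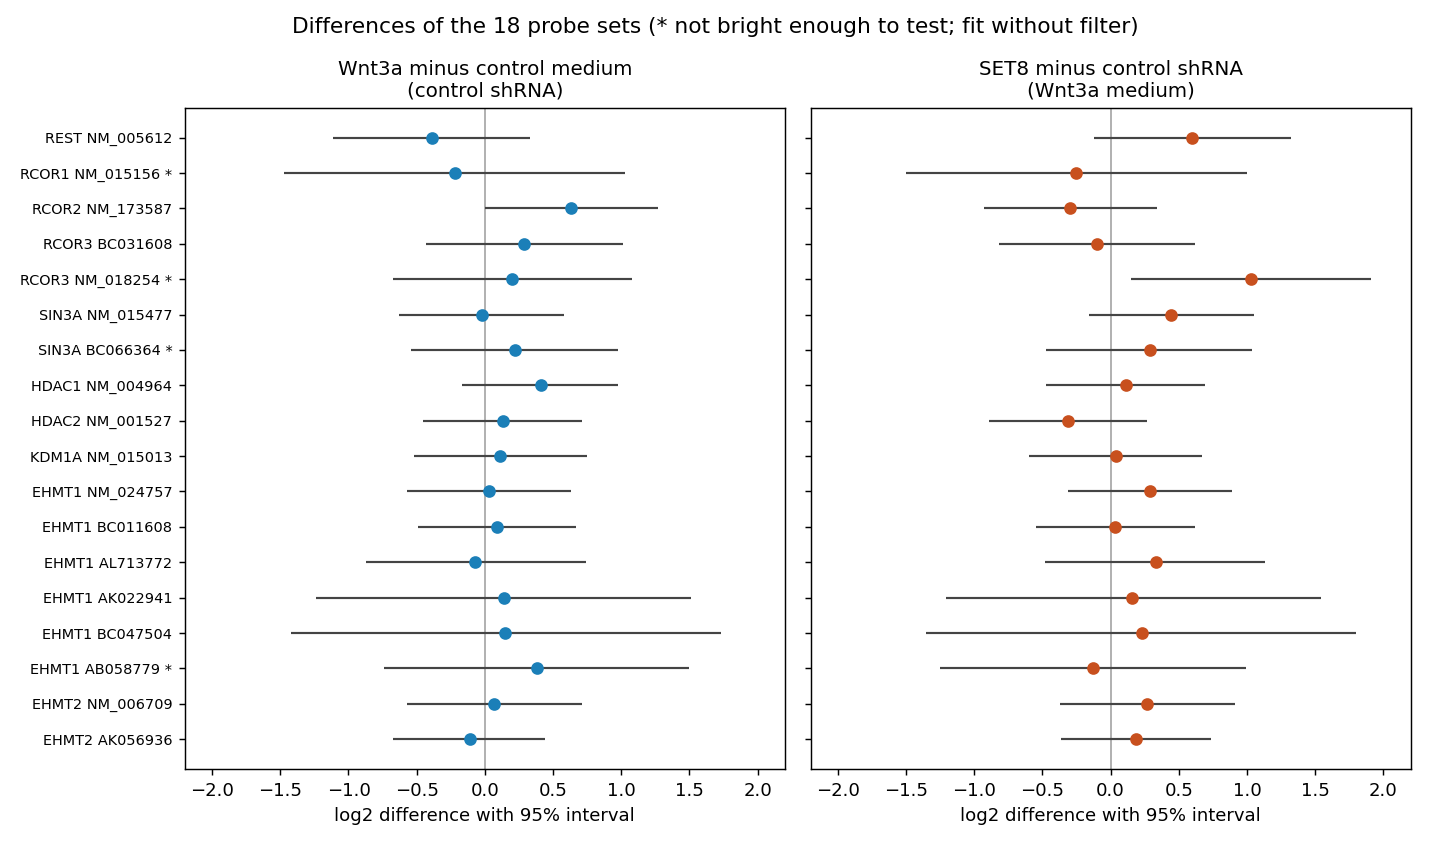
Log2 difference of each of the 18 probe sets with its 95% interval from limma, for Wnt3a medium against control medium (left) and SET8 shRNA against control shRNA (right). An asterisk marks probe sets below the brightness filter, fitted without it. Every tested probe set has an interval that reaches 0, and the widest are those of EHMT1 probe sets AK022941 and BC047504.

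A pair of EHMT1 probe sets differed more between replicate arrays than between groups. On BC047504 the values were 8.91 and 7.52 with control medium, 9.36 and 7.38 with Wnt3a medium, and 8.46 and 8.73 with SET8 shRNA. On AK022941 they were 9.99 and 8.89, then 10.45 and 8.70, then 9.59 and 9.89. With control shRNA the array numbered 1 was thus above the array numbered 2 by 1.39 and 1.98 on the first and by 1.10 and 1.75 on the second, in control and Wnt3a medium. With SET8 shRNA the same steps were -0.27 and -0.30.

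The other EHMT1 probe sets had smaller steps in both control shRNA groups. In the order of groups the steps were 0.12, 0.20 and -0.47 on NM_024757, 0.26, 0.18 and 0.34 on BC011608, 0.42, 0.91 and -0.17 on AL713772, and 0.95, 1.13 and 0.52 on the untested AB058779. The exemplar transcripts of AK022941 and BC047504 end 43.9 and 51.7 kb before the end of NM_024757, that of AL713772 ends 0.4 kb before it and that of AB058779 ends beyond it. A step over 1 log2 unit in both control shRNA groups was seen in 707 of the 23808 tested probe sets, or 2.97%. A step of any size in this direction in both groups was seen in 11 of the 14 member probe sets, 5 of them of EHMT1, against 40.2% of all tested. The labels do not say what the replicate numbers stand for, and the fit treats the arrays of a group as exchangeable, so these steps widen the intervals of EHMT1.

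**Figure D3:**
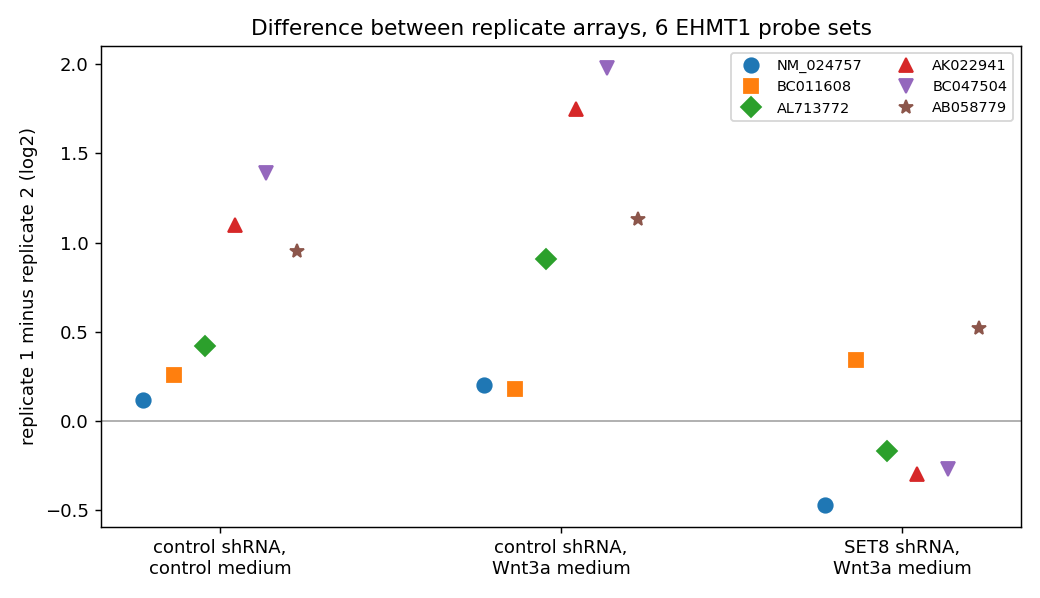
Log2 intensity of replicate 1 minus replicate 2 for the 6 EHMT1 probe sets (symbols) in each group. AK022941 and BC047504 stand 1.10 to 1.98 above 0 with control shRNA and at -0.30 and -0.27 with SET8 shRNA, while NM_024757 and BC011608 stay between -0.47 and 0.34, and AL713772 and AB058779 are at 0.42 to 1.13 with control shRNA.

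Counted over the 9 tested member genes, each by its probe set of highest mean, 7 had higher values and 2 lower in Wnt3a medium, beside 53.0% higher and 47.0% lower among all tested probe sets. Their median was 0.11, beside 0.02. Groups did not overlap for RCOR2 and HDAC1, both higher, and for no member that was lower. Among all tested, 12.0% did not overlap and were higher, 9.15% did not overlap and were lower, and 21.1% did so in either direction, so 2 of 9 is close to the background. With SET8 shRNA 6 were higher and 3 lower, beside 51.1% and 48.9%, with a median of 0.11 beside 0.01. Groups did not overlap for REST and SIN3A (higher, background 17.1%) and for HDAC2 (lower, background 17.0%). That is 3 of 9 beside 34.1% in either direction, again close to the background.

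Between SET8 shRNA with Wnt3a medium and control shRNA with control medium, 8 of the 9 genes had higher values, and HDAC2 alone was lower, beside 52.0% and 48.0% of all tested. The median was 0.32 beside 0.02 for all tested. Groups did not overlap for HDAC1, SIN3A, EHMT1 and EHMT2 (higher, background 21.5%) and HDAC2 (lower, background 18.2%), 5 of 9 beside 39.7%. This comparison combines the other 2 and shares arrays with each.

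Other subunits of the same complexes, with partners and relatives of the subunits, were read from chosen lists. Of 18 further CoREST subunits and partners, 16 were bright enough to test and none was called in any comparison. In the SET8 comparison 7 were higher and 9 lower (median -0.02), with 2 of 16 at an unadjusted p under 0.05, both lower, beside 7.16% of all tested probe sets. Among them was KDM1B, the second demethylase of the KDM1A family (-1.30, SE 0.27, limma adjusted p 0.22). It was listed as a relative of KDM1A and is not itself a CoREST subunit. KDM1B read 8.81 and 9.11 in Wnt3a medium and 7.55 and 7.75 with SET8 shRNA, and was bright enough to test through the control shRNA arrays alone. The highest was ZMYM3, a zinc-finger partner (0.53, SE 0.33). For Wnt3a 9 were higher and 7 lower (median 0.04).

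Of 14 other SIN3 complex subunits, 11 were tested, none was called and 7 were higher in the SET8 comparison (median 0.09). The highest was SUDS3, a subunit that binds SIN3A (0.55, SE 0.27), and the lowest SAP30L (-0.42, SE 0.39). For Wnt3a 8 were higher, from SAP130 (0.64, SE 0.56) down to ING1, the lowest (-0.18). SAP130 had the same replicate step as the EHMT1 pair, 1.19 and 1.52 with control shRNA and -0.37 with SET8 shRNA. Genes of REST turnover, splicing, transport and its partner phosphatases gave 7 higher and 7 lower of 14 tested (median 0.06), with none called. Lowest was CTDSP1, a small C-terminal domain phosphatase that REST recruits (-0.78, SE 0.31, limma adjusted p 0.66), and highest CTDSPL, of the same family (0.41, SE 0.30). For Wnt3a 4 were higher and 10 lower (median -0.07), where CTDSPL was again the highest (0.21) and TERF2, a telomere protein that stabilises REST, the lowest (-0.21).

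The genes that REST is known to repress were looked at through a list of 50 textbook targets. Where RE1 lies close to a gene start, it can be seen in the promoter sequence. The window from 250 bases before to 50 bases after the start (RefSeq, GRCh38.p14) was searched on both strands for the RE1 consensus, allowing at most 4 mismatches among its 19 fixed letters, with 2 free letters in its middle. A match was present in 104 of 27305 genes, or 0.381%. Among 36 targets with a promoter in the table, 5 had one. Of 9 members searched none had one, the nearest with 6 mismatches. The 5 are printed here because they set the element beside the values that follow, 5′ to 3′ in the direction of the motif, with the stretch aligned to the consensus in capitals, mismatches included.
GRIA2: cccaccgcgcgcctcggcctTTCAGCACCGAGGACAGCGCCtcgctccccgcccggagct
SYN1: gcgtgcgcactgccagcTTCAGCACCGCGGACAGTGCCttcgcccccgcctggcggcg
VGF: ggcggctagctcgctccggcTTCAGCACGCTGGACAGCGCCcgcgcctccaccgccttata
CELSR3: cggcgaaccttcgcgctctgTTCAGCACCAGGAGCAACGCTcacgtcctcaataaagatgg
SCAMP5: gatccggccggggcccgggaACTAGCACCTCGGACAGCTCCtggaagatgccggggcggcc

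The GRIA2 run (chr4:157220369-157220428, minus strand) had no mismatch, so that its capitals spell the consensus searched, with its letters 10 and 11 free. SYN1 (chrX:47620050-47620107, minus strand) and VGF (chr7:101165539-101165599, plus strand) had 1 each, a number reached by 6 of the 27305 genes. CELSR3 (chr3:48662994-48663054, minus strand) and SCAMP5 (chr15:74995366-74995426, plus strand) had 4. A match describes the letters only, and an element further away is not seen by this window.

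GRIA2, an AMPA receptor subunit, was near the random control probes. Its brighter probe set read 4.78 and 5.28, then 4.61 and 4.03, then 4.12 and 4.59, below the array median on all 6 arrays and not tested. SYN1, synapsin I of synaptic vesicles, was at 9.39 and 9.41 with control medium, 9.33 and 9.62 with Wnt3a medium, and 7.72 and 7.07 with SET8 shRNA. Both SET8 shRNA arrays were far below the other 4. The SET8 difference was -2.08 (SE 0.29) with a limma adjusted p of 0.10, and a second probe set gave -1.48 (SE 0.23, limma adjusted p 0.13). The first was bright enough to test through the control shRNA arrays alone.

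VGF, a secreted neuropeptide precursor, read 8.54 and 9.10 in Wnt3a medium and 8.0 and 7.84 with SET8 shRNA (-0.90, SE 0.29, limma adjusted p 0.49), and a second probe set gave -0.31 (SE 0.32). CELSR3, an adhesion receptor of axon guidance, was at -0.65 (SE 0.24, limma adjusted p 0.61). SCAMP5, a synaptic vesicle membrane protein, was at -0.81 (SE 0.26) and on its second probe set at -0.95 (SE 0.25, limma adjusted p 0.35). On the brighter or only probe set of these 4 tested genes, SYN1 included, both SET8 shRNA arrays lay below both Wnt3a arrays of control shRNA, as in 17.0% of all tested probe sets. On the second VGF probe set the groups overlapped.

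Of the 50 targets, 24 were bright enough to test, and 17 of these lay above the median on all 6 arrays. None was called. With SET8 shRNA 19 had lower and 5 higher values, with a median of -0.50 beside 0.01 for all tested. In 13 of the 24, both SET8 arrays were below both Wnt3a arrays, as were 17.0% of all tested probe sets, and 11 had an unadjusted p under 0.05, all lower, beside 7.16% of all tested in either direction. Besides SYN1, the lowest were the granins CHGB (-2.90, SE 0.41, limma adjusted p 0.10) and CHGA (-2.11, SE 0.44, limma adjusted p 0.22), proteins of dense-core vesicles. CHGB read 8.40 and 9.13 in Wnt3a medium and 6.37 and 5.35 with SET8 shRNA. At the other end was RAB3A, a vesicle GTPase (0.70, SE 0.51), which read 8.9 and 8.0 in Wnt3a medium and 9.08 and 9.22 with SET8 shRNA. It was the 1 target that was higher without overlap, beside 17.1% of all tested probe sets. In control medium RAB3A read 7.77 and 6.23.

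The 24 tested targets are not all targets, and 5 of them, SYN1, CHGA, CHGB, RUNDC3A and HCN4, passed the brightness filter through control shRNA arrays alone, which favours a lower value with SET8 shRNA. The first 4 of these are among the 13 and the 11 counted above, which are therefore no support for a direction. Over the 17 above the median on every array the median difference was -0.48, beside 0.0 for all probe sets that bright on every array. Of the 17, 14 were lower, 9 were without overlap and 7 had an unadjusted limma p under 0.05. The shares among all probe sets that bright were not counted, so these counts have no background of their own. Over all 50 without a filter the median difference was -0.17, beside 0.0 for all probe sets, with 32 lower and 18 higher. The list was chosen with the lower values of some neuronal genes already known from these arrays, so its direction is no independent evidence. Haemoglobin genes, markers of another cell type, were also lower with SET8 shRNA. HBA1 was at -1.65 (SE 0.38) and HBA2, bright enough through control shRNA arrays alone, at -1.12 (SE 0.23). The transcripts of HBA1 and HBA2 are nearly alike, so they are not independent markers. Of 12 blood cell markers 4 were tested, and 3 of these had lower values: HBA1, HBA2 and CD68 (-1.07, SE 0.26). CD14 did not (0.02, SE 0.27). The summed intensity of the 12 blood cell markers was 2380 to 3140 with control shRNA and 1570 to 1590 with SET8 shRNA. The neuron marker NEFL, a neurofilament, was at 0.64 (SE 0.25). All 3 neuron markers tested had higher values, but SLC32A1 (0.28, SE 0.29) and SYN2 (0.03, SE 0.26) had groups that overlapped. The sum over 12 neuron markers was 4150 to 5000 with control shRNA and 5650 to 6760 with SET8 shRNA. NEFL was the brightest of those tested, and the sum largely follows it. The neurofilaments NEFH (-1.56, SE 0.24) and NEFM (-0.46, SE 0.22), listed as targets, were lower. All arrays are of the HEK293 line, and the blood cell and neuron markers do not count such cells in it. The part of these markers in the lower target values was not tested, and fewer cells of a kind cannot be told apart from less RNA per cell.

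For Wnt3a the same 24 targets had 16 higher and 8 lower values, with a median of 0.12 beside 0.02. The highest was RAB3A (1.45, unadjusted p 0.025, limma adjusted p 1.0) and the lowest HCN4, a pacemaker channel (-0.66). SYN1 (0.08), CHGB (0.09) and CHGA (-0.12) were near 0. Without Wnt3a medium replicate 2 the count was 13 lower, with a median of -0.06, so the direction in this comparison rests on that array.

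**Figure D4:**
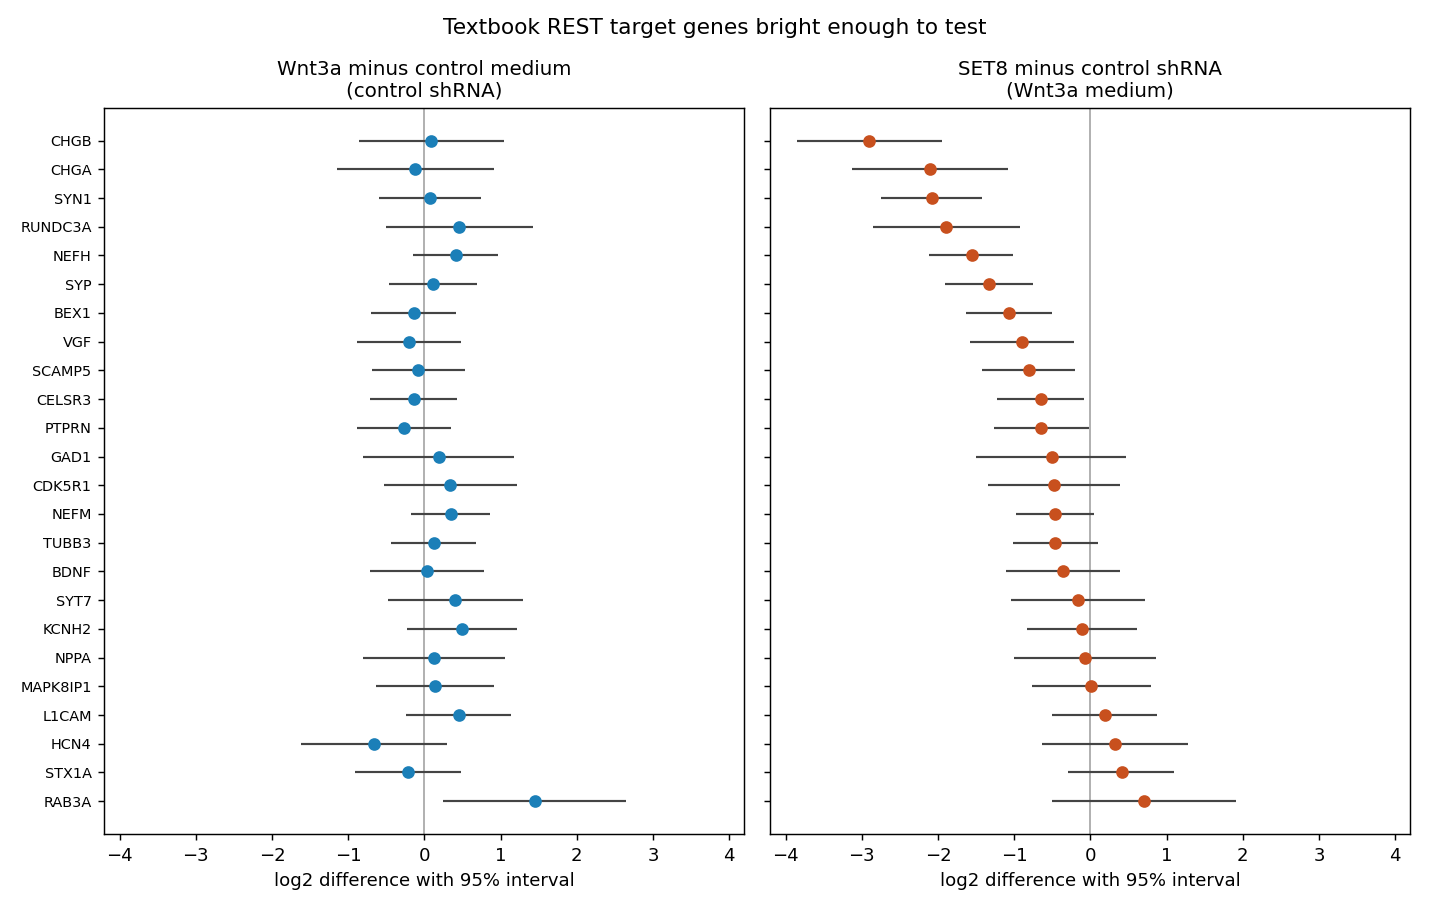
Log2 difference with its 95% interval from limma for the 24 textbook REST targets bright enough to test, ordered by the SET8 difference. In the Wnt3a comparison (left) the points lie around 0 with a median of 0.12, and in the SET8 comparison (right) 19 lie below 0, from CHGB at -2.90, and 5 above.

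Beside these target values, REST was 0.60 higher with SET8 shRNA, and 0.29 to 0.92 higher with 1 array left out at a time. Against control shRNA with control medium it was 0.21 higher, with groups that overlapped. With SET8 shRNA, SIN3A was at 0.44, EHMT1 at 0.29, EHMT2 at 0.27, HDAC1 at 0.11 and KDM1A at 0.04. RCOR3 was at -0.10, RCOR2 at -0.30 and HDAC2 at -0.31, and no member was called. A link between REST and the target values was not tested. The interval of each of these differences reaches 0. REST protein and its binding to DNA were not measured on these arrays.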

How the data were processed

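RMA (robust multi-array average) values on a linear intensity scale were deposited for every probe set, per the submitters' processing notes. The RMA version and settings are not given in the sources used here. For the main fit neither background correction nor normalisation was repeated, although the planned fit had assumed scanner signals. Quantile normalisation was repeated as an alternative. In the series value table the deposited intensities are the same (largest difference 0). Nearly every probe set (45031 of 45033) has 3 probes, and positions are hg18 per the file headers. A RefSeq table updated gene names by Entrez ID (86.4% matched). Log2 was taken of the deposited intensities without an offset. Probe sets above the 50th percentile of their array in at least 2 of 6 arrays were tested (23808, with 21225 left out). Group means of all 6 arrays entered 1 model in limma 3.58.1 (R 4.3.3; 3 residual and 4.32 prior degrees of freedom, prior SD 0.282), with Benjamini-Hochberg adjustment over all tested and a threshold of 0.05. The script was tested on simulated data. The number of arrays limits the precision.

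The members and lists were chosen with earlier results of these data known. The genes named are all members, KMT5A, the highest and lowest of each further list, and the 5 genes most like REST. Other target genes, blood cell markers, NEFL and genes with a motif match were named after their values were seen, and some genes that the rule selects among cell type markers and CoREST partners are not reported here. RCOR1 and 3 further probe sets were fitted without the filter. Protein sequences were not used here. The alternatives covered filter, normalisation, variance prior, arrays in the fit, array weights, offset, probe set summary, replicate block and leaving out each array.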

Additional observations from a re-analysis of the deposited data

How the results depend on the processing

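No member was called under any of the settings tried, and the smallest limma adjusted p of a member was 0.81 for Wnt3a, 0.38 for SET8 shRNA and 0.25 for both together. Of 531 values recomputed, 510 kept their direction and side of the threshold. Outside the omission of single arrays, 3 changed sign, all in the Wnt3a comparison and all near 0: EHMT1 at -0.04 with median centring, and EHMT2 at -0.02 and SIN3A at 0.10 as the mean over a gene's probe sets. The cause was not tested. Leaving out 1 array at a time, which leaves a group with 1 array assumed to vary like the others, changed the sign of further small differences. For Wnt3a these ran from -0.07 to 0.13 for EHMT1, -0.16 to 0.30 for EHMT2, -0.08 to 0.34 for HDAC2, -0.07 to 0.29 for KDM1A, -0.01 to 0.59 for RCOR3 and -0.14 to 0.09 for SIN3A. For SET8 shRNA they ran from -0.10 to 0.32 for HDAC1, -0.16 to 0.24 for KDM1A and -0.37 to 0.17 for RCOR3, and for both together from -0.05 to 0.35 for KDM1A, -0.11 to 0.49 for RCOR3 and -0.05 to 0.47 for REST. REST itself ran from 0.29 to 0.92 for SET8 shRNA and from -0.71 to -0.08 for Wnt3a. Of the textbook targets, 7 to 13 of 24 were lower for Wnt3a, the 13 without Wnt3a medium replicate 2.

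Replicate numbers are shared by the groups, but same-numbered arrays deviated together only between the 2 media (correlation 0.75) and not with SET8 shRNA (-0.29 and -0.29). The numbers were therefore not taken to pair the arrays of all groups. The main fit leaves the shared deviation of the 2 media out of the Wnt3a comparison. A paired fit of the control shRNA arrays alone was not run, so consistency within pairs was not tested. In the fit of all groups with a replicate block, the KDM1A difference for Wnt3a stayed 0.11, with an SE of 0.21 beside 0.27. With the replicate number as a block, the REST difference for SET8 shRNA stayed 0.60, no member was called, and the calls over all probe sets in the third comparison went from 12 to 0. With the SET8 shRNA numbers crossed, a setting chosen after seeing the data, calls over all probe sets were 3, 182 and 792, none of them a member. With 2 arrays a group, the intervals of most members take in changes of 1.5-fold, and RCOR1 was below the array median throughout.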
